A study of Mus musculus with 6 samples.

Results

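The enzymes of glycolysis and of the tricarboxylic acid (TCA) cycle were followed in tuft cells sorted from the mouse ileum. The set held 48 genes out of 23420 in the table, taken by name and not by level, from the hexokinases through lactate dehydrogenase, the pyruvate dehydrogenase complex and the TCA cycle to pyruvate carboxylase and the phosphoenolpyruvate carboxykinases. The RNA came from 6 libraries that form 1 group, with C57BL/6 in the strain field and the genotype Gfi1b-eGFP. Each was titled as a mouse replicate from C57BL/6J mice. In these animals, heterozygous for the reporter according to the methods, 1 allele of Gfi1b, a transcription factor gene, drives green fluorescent protein, so that the sort follows Gfi1b expression. Cells were sorted as positive for GFP and EpCam and negative for CD45 and propidium iodide. The labels give neither a treatment nor an age for any library, and no group of other cells was analysed here.

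Glycolysis splits glucose into pyruvate in the cytosol, and lactate dehydrogenase interconverts pyruvate and lactate. The pyruvate dehydrogenase complex feeds pyruvate into the TCA cycle of mitochondria, where succinyl-CoA synthetase releases succinate and succinate dehydrogenase, which is also complex II of the respiratory chain, oxidises it to fumarate. Many of these steps have isozymes, encoded by separate genes, that differ in tissue and in kinetics. Succinate is also the ligand of SUCNR1, a receptor of tuft cells, so the genes that make and use it inside the cell were described side by side.

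All 13 genes of a tuft cell marker list were above 0 in every library, where 47.2% of all genes in the table were. Their summed level was 6059 to 10221 TPM (transcripts for each 1000000 transcripts of the library). Among them, Dclk1, a kinase gene widely used to mark tuft cells, was at 511 to 821 TPM. Marker genes of other cells were present as well. Every listed gene of enterocytes, Paneth cells, goblet cells, stem cells and dividing cells was likewise above 0 in every library. The summed level was 5855 to 14822 TPM for 8 enterocyte genes, led by Fabp1, 3563 to 21421 TPM for 7 Paneth cell genes, led by Defa24, and 1053 to 5118 TPM for 7 goblet cell genes, led by Zg16. For 9 enteroendocrine genes, led by Sct, it was 379 to 537 TPM, for 5 stem cell genes, led by Olfm4, 317 to 788 TPM, for 4 genes of dividing cells, led by Top2a, 39.0 to 173 TPM, and for 7 leukocyte genes, led by Ptprc, 123 to 302 TPM. The enteroendocrine sum was mostly Sct, at 331 to 474 TPM, and Gcg, Pyy, Cck, Neurod1, Nts and Tph1 were at 0 in replicate 1. Ptprc was highest in replicate 1, at 171 TPM, and was at 74.2 TPM in replicate 6. Of the 7 leukocyte genes, 4 were highest in replicate 6, 2 in replicate 5 and 1 in replicate 1. The 4 red blood cell genes found, led by Hba-a1, summed to 1.71 to 1475 TPM. TPM is a share of all transcripts corrected for length, so levels of different genes can be compared within a library, but the sequencing depth is not kept and no detection limit can be given. The ribosomal RNA precursor Rn45s took 23.1% to 32.6% of the TPM. In such bulk RNA, fewer cells of a type and less RNA per cell cannot be told apart.

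Of the 48 enzyme genes, 44 were listed above 0 in every library, where 47.2% of all genes in the table were. A mean of at least 10 TPM was reached by 40 of them, against 29.8% of all genes, and a mean of at least 100 TPM by 23, against 4.50% of all genes. Hk3 was listed at 0 throughout, and Pfkm, Pgam2 and Ldhb were at 0 in 1 or more libraries. Together the enzymes took 1.11% to 1.43% of the TPM left after Rn45s and the transcript Gm20594 were set aside. The 22 genes from hexokinase to lactate dehydrogenase summed to 5759 ± 985 TPM (SD, n = 6) and the 19 TCA cycle genes to 2868 ± 488 TPM (SD, n = 6), a ratio of 1.70 to 2.45 within a library. Here and below, the 19 TCA cycle genes are those listed from Cs to Mdh2, and they include the cytosolic forms Aco1, Idh1 and Mdh1. The sums rest on genes of unequal level. The median of the gene means was 66.2 TPM over the first set and 163 TPM over the TCA cycle genes.

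The sequences just upstream of the annotated starts are given for Ldha and Ldhb, the isozyme pair with the widest gap in level, and for Hk2, a gene of low level that shares a short motif with Ldha. The letters come from RefSeq for build GRCm38.p6, 250 bases before the start, read 5′ to 3′ on the strand of the gene. Capitals mark ACGTG or its reverse complement CACGT, the core letters of sites that the hypoxia-inducible factors are known to bind. The Ldha window (chr7:46845554-46845803, plus strand) lies inside the annotated gene, whose longest model starts farther upstream, and overlaps none of its exons. The windows of Ldhb (chr6:142507958-142508207, minus strand) and Hk2 (chr6:82774455-82774704, minus strand) lie before the annotated gene.
Ldha: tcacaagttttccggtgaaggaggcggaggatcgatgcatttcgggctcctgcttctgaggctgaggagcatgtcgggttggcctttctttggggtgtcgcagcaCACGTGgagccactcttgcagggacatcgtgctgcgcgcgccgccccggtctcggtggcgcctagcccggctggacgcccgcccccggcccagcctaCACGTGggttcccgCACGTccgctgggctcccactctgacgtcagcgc
Ldhb: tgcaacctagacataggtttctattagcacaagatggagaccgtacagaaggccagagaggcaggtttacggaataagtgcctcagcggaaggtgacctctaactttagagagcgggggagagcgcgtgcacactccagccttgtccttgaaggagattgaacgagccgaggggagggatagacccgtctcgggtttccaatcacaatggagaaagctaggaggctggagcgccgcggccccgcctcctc
Hk2: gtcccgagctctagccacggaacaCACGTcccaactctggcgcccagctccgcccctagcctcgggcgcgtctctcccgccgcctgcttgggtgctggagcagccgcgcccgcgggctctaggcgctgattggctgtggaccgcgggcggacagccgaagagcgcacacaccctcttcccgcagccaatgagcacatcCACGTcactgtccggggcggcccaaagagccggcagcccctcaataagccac
The Ldha window shown held 5 matches at 3 places, because the letters CACGTG match on both strands. A second Ldha window (chr7:46846832-46847081, plus strand), of a start farther downstream and not shown, held 0. The Ldhb window held none, and the Hk2 window held 2, although Hk2 had a level of 1.17 to 13.5 TPM. Windows were found for 46 of the 48 genes, and 21 of their 65 windows (32.3%) held the motif, against 16.6% of all 32851 windows. Some genes have several windows that overlap, so the windows are not independent. All 6 windows of Ogdh were among those with the motif. The windows of the enzyme genes were also richer in CG, with a median of 14 against 6 CG dinucleotides. A match is a description of letters and says nothing of binding in these cells.

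**Figure D1:**
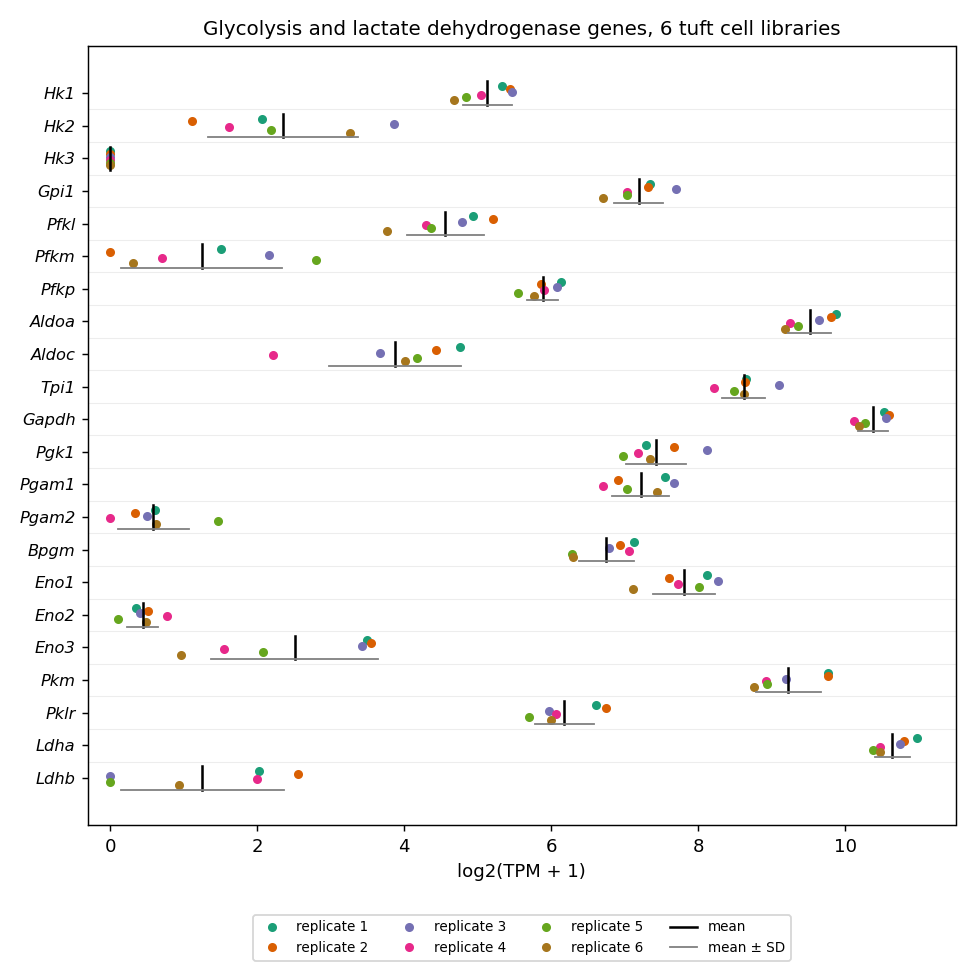
Level of each glycolysis and lactate dehydrogenase gene as log2(TPM + 1) on the x axis, in pathway order. Points are the 6 libraries, black bars the mean and grey bars the mean ± SD. Ldha and Gapdh lie farthest to the right, and Hk3 lies at 0 in all 6 libraries.

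At the glycolysis steps with several isozymes in the set, 1 gene held most of the TPM. Lactate dehydrogenase A gene Ldha (ENSMUSG00000063229.15, chromosome 7, 46841475 to 46855627, plus strand) was the most abundant of the 48 enzymes, at 1327, 1572 and 2010.1 TPM in the lowest, median and highest library, with a mean of 1615 ± 265 TPM (SD, n = 6) and rank 43 in the whole table. Ldhb (ENSMUSG00000030246.11, chromosome 6, 142490249 to 142507957, minus strand), whose subunit is known from heart and other oxidative tissues, had values of 3.07, 4.89, 0, 3.00, 0 and 0.92 TPM across replicates 1 to 6. Ldha therefore made up 99.7% to 100% of the TPM of this pair. Ldhb was the lower of the pair in 6 of 6 libraries, with a difference from Ldha of -9.39 ± 1.02 on the log2(TPM + 1) scale (SD, n = 6). By an exact permutation test p was 0.03125 and adjusted p 0.0375.

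This test flips the sign of the difference within each library, is two-sided, and cannot give a p under 0.03125 with 6 libraries. It was run on 18 pairs of genes, with Benjamini-Hochberg adjustment over the 18 pairs. The 15 pairs that passed had the same sign in 6 of 6 libraries, and all had p = 0.03125 and adjusted p = 0.0375 by this exact test. The sizes of the differences are therefore what tells these pairs apart. Because of this lower limit, a pair can pass the adjustment only if many of the 18 pairs reach the limit together. The adjusted p of the small differences of Suclg1 from Sdha and Sdhb, given below, thus rests on isozyme pairs with wide gaps. It is no separate support for those differences.

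Hk1, a hexokinase of most tissues that binds mitochondria, had the highest level of the 3 hexokinases in the set. Hk1 was at 24.5, 35.55 and 43.1 TPM in the lowest, median and highest library, and Hk2, the isozyme known from muscle, fat and proliferating cells, at 1.17, 3.38 and 13.5 TPM. Hk2 was lower in 6 of 6 libraries, with a difference from Hk1 of -2.78 ± 1.12 on the log2(TPM + 1) scale (SD, n = 6), and the median TPM ratio of Hk1 to Hk2 was 9.99. Hk2 varied most in this pair, and its highest values, 13.5 TPM in replicate 3 and 8.59 TPM in replicate 6, went with shares of Hk1 of 76.2% and 74.0% of the TPM of Hk1, Hk2 and Hk3. Hk3, known from myeloid cells, passed the comparison with Hk1 but has no fold, being listed at 0 in all libraries. The related Hkdc1, which is outside the set and not in these shares, was at 7.22 to 28.8 TPM. It came close to Hk1 in replicate 6, at 21.5 TPM beside 24.5 TPM of Hk1.

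Glucose phosphate isomerase, Gpi1, followed at 104, 144 and 206 TPM. At the committed phosphofructokinase step, the platelet-type gene Pfkp was ahead, at 45.6, 58.0 and 69.1 TPM, and the liver-type gene Pfkl was at 12.55, 23.1 and 35.95 TPM. Pfkp exceeded Pfkl in 6 of 6 libraries, by 1.32 ± 0.45 on the log2(TPM + 1) scale (SD, n = 6), and their ranges did not overlap. Pfkp made up 61.4% to 80.7% of the phosphofructokinase TPM. The muscle-type gene Pfkm had values of 1.83, 0, 3.46, 0.63, 5.93 and 0.24 TPM across replicates 1 to 6 and lay below Pfkl in each of them.

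Aldoa, the aldolase of muscle and most other tissues, was at 577, 726 and 934 TPM, and Aldoc, the brain type, at 3.64, 16.0 and 26.0 TPM. The difference of Aldoc from Aldoa was -5.64 ± 0.75 on the log2(TPM + 1) scale (SD, n = 6), and the median ratio of Aldoa to Aldoc was 40.9. Aldoa made up 97.3% to 99.4% of the TPM of this pair.

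The steps from triose phosphate to phosphoenolpyruvate had high levels. Tpi1, the triose phosphate isomerase, was at 296, 394 and 549 TPM. Gapdh, which oxidises glyceraldehyde phosphate, was at 1115, 1350.2 and 1545 TPM, the smallest spread on the log2 scale among the 23 genes of at least 100 TPM (SD 0.21, n = 6). Pgk1, the phosphoglycerate kinase, was at 125, 159 and 276 TPM. Pgam1, the widely expressed phosphoglycerate mutase, was at 103, 151 and 202 TPM, whereas the muscle form Pgam2 had values of 0.53, 0.26, 0.41, 0, 1.75 and 0.54 TPM across replicates 1 to 6 and was lower in 6 of 6 libraries.

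Bpgm, which makes the 2,3-bisphosphoglycerate that regulates oxygen release in red blood cells, was at 76.8, 115 and 138 TPM in the lowest, median and highest library. Across replicates 1 to 6, Bpgm was at 138, 121, 109, 133, 76.8 and 77.3 TPM. The red cell gene Hba-a1 was at 669, 949.96, 35.0, 1.61, 167 and 23.1 TPM in the same order, and the part of red cell RNA in Bpgm was not tested.

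Among the enolases, the ubiquitous form Eno1 was at 137, 234 and 309 TPM. The muscle form Eno3 was at 0.95, 6.51 and 10.7 TPM and the neuronal form Eno2 at 0.08, 0.365 and 0.70 TPM. Both were lower than Eno1 in 6 of 6 libraries, with a difference of -5.29 ± 0.91 for Eno3 and -7.37 ± 0.55 for Eno2 on the log2(TPM + 1) scale (SD, n = 6). Eno3 was at 9.79 to 10.7 TPM in replicates 1 to 3 and at 0.95 to 3.23 TPM in replicates 4 to 6. The value of Eno1 is uncertain because the table also holds Eno1b, under the older symbol Gm5506, at 81.7 to 192 TPM. Of the 25-base words in the Eno1b transcript, 83.5% also occur in Eno1, so reads can be divided between them. The sum of both was 233 to 468 TPM, of which Eno1 took 50.1% to 77.2%.

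Pyruvate kinase was represented mainly by Pkm, whose splice forms PKM1 and PKM2 a gene-level table cannot separate. Pkm was at 433, 537 and 870.1 TPM and Pklr, the liver and red cell isozyme, at 51.0, 64.3 and 106 TPM. The difference of Pklr from Pkm was -3.04 ± 0.20 on the log2(TPM + 1) scale (SD, n = 6). Both genes were highest in replicates 1 and 2, and the share of Pklr stayed between 9.46% and 12.6%, a narrow range beside the 2.08-fold range of its TPM. Pklr shares 711 exonic bases with Hcn3 on the opposite strand, which had a mean of 0.653 TPM.

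**Figure D2:**
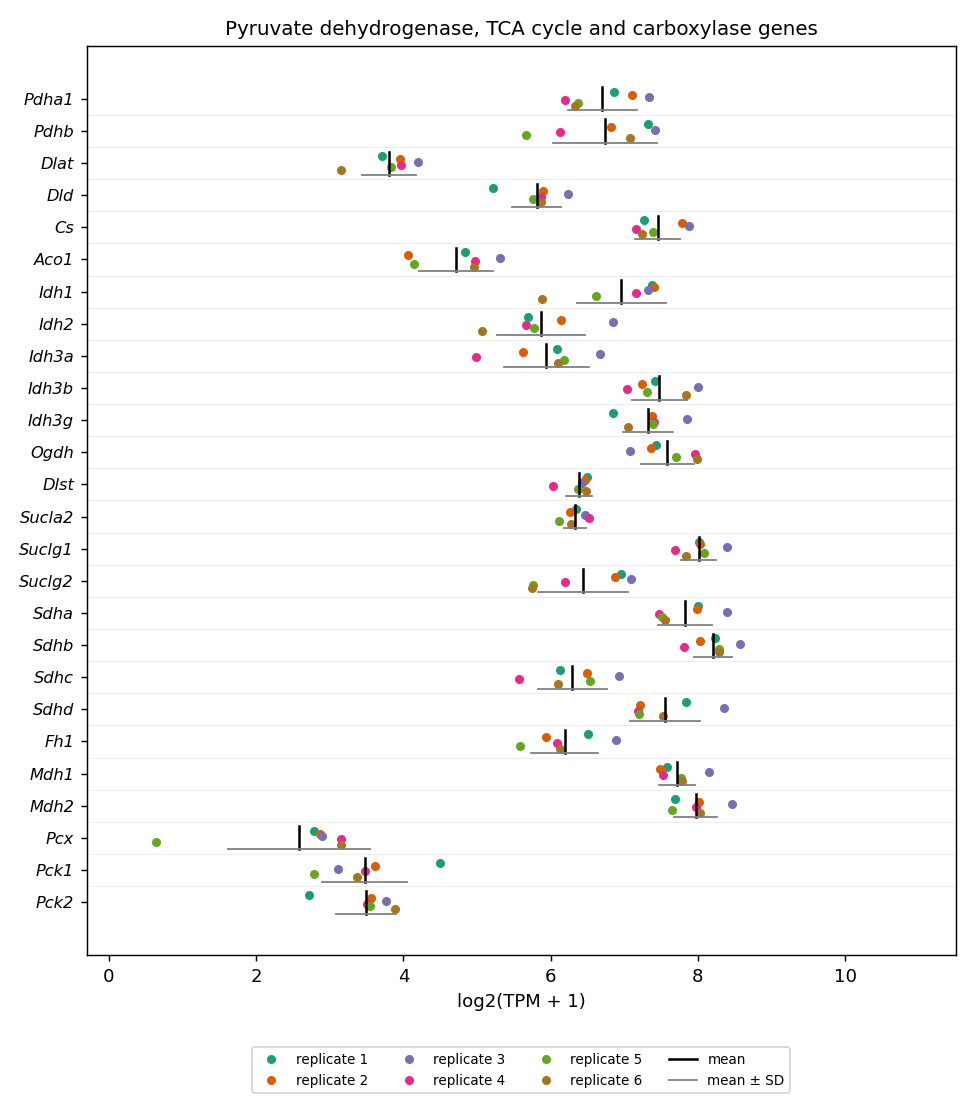
Level of each pyruvate dehydrogenase, TCA cycle and carboxylase gene as log2(TPM + 1) on the x axis, in pathway order. Points are the 6 libraries, black bars the mean and grey bars the mean ± SD. Most TCA cycle genes lie between 6 and 8, with replicate 3 often farthest to the right, and Pcx, Pck1 and Pck2 lie lower.

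The pyruvate dehydrogenase complex had uneven transcript levels. The genes of its E1 component, Pdha1 and Pdhb, were at 72.2, 98.5 and 161 TPM and at 49.6, 123 and 171 TPM in the lowest, median and highest library. Dlat, the E2 core, was at 7.86, 13.9 and 17.4 TPM, and Dld, the E3 subunit that other dehydrogenase complexes share, at 36.35, 57.4 and 74.6 TPM. The TPM of Pdha1 was 4.92 to 10.1 times that of Dlat in the same library. Pdhb varied most among the 23 genes of at least 100 TPM, with an SD of 0.70 on the log2(TPM + 1) scale (n = 6).

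The TCA cycle genes ranged from a mean of 26.5 TPM (Aco1) to 298 TPM (Sdhb). This was narrower than the range of the 22 genes from hexokinase to lactate dehydrogenase, from 0 TPM (Hk3) to 1615 TPM (Ldha). Cs, the citrate synthase, was at 141, 160 and 234 TPM. Aco1, the cytosolic aconitase that also acts as an iron regulatory protein, was at 15.65, 28.8 and 38.9 TPM.

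The NADP-dependent isocitrate dehydrogenases differed by compartment. Cytosolic Idh1 was at 57.9, 150.5 and 168 TPM and mitochondrial Idh2 at 32.45, 52.4 and 115 TPM. Idh2 was lower in 6 of 6 libraries, with a difference from Idh1 of -1.09 ± 0.46 on the log2(TPM + 1) scale (SD, n = 6). Their ranges overlapped across libraries, with Idh1 at 57.9 TPM in replicate 6 and Idh2 at 115 TPM in replicate 3. Of the NAD-dependent enzyme of the cycle, the catalytic subunit gene Idh3a was at 30.6, 67.3 and 101 TPM, and Idh3b and Idh3g were at 131, 164 and 256 TPM and at 115, 165 and 230 TPM. Idh3a had 0.234 to 0.453 times the TPM of Idh3b in the same library.

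Ogdh, the E1 component of the oxoglutarate dehydrogenase complex, was at 135, 189.6 and 253 TPM, and its E2 gene Dlst at 64.5, 86.6 and 89.6 TPM. Ogdh was the only 1 of the 40 enzymes with a mean of at least 10 TPM whose values in replicates 4 to 6, from 208 to 253 TPM, all lay above those in replicates 1 to 3, from 135 to 171 TPM. Of all genes of that level, 2.93% did so.

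Succinate is made in the cycle by succinyl-CoA synthetase, an enzyme of an alpha subunit (Suclg1) with either an ATP-forming (Sucla2) or a GTP-forming (Suclg2) beta subunit. Suclg1 was at 206, 259 and 336 TPM, Sucla2 at 68.5, 78.5 and 91.1 TPM and Suclg2 at 52.8, 94.1 and 136 TPM. The alpha subunit exceeded the sum of both beta subunits in 6 of 6 libraries, by 1.26 to 2.22 times. The choice of beta subunit did not have 1 direction. Suclg2 made up 60.5%, 60.4% and 60.7% of the beta subunit TPM in replicates 1 to 3 and 44.3%, 43.8% and 40.8% in replicates 4 to 6, values that do not overlap and that no scaling of a library can change. Over all libraries, Sucla2 differed from Suclg2 by -0.10 ± 0.56 on the log2(TPM + 1) scale (SD, n = 6), from -0.62 to 0.53, and the exact permutation test gave p = 0.656 and adjusted p = 0.695. Replicates 1 to 3 averaged -0.61 and replicates 4 to 6 averaged 0.40. Sucla2 itself was the steadiest of the 40 enzymes of at least 10 TPM (SD 0.15 on the log2 scale, n = 6), whereas Suclg2 was at 116 to 136 TPM in replicates 1 to 3 and at 52.8 to 72.3 TPM in replicates 4 to 6.

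Succinate is used by succinate dehydrogenase, whose flavoprotein Sdha and iron-sulphur protein Sdhb are held in the membrane by Sdhc and Sdhd. Sdha was at 177, 219.8 and 335 TPM, Sdhb at 224, 306 and 380.1 TPM, Sdhc at 46.4, 79.4 and 121 TPM and Sdhd at 144, 166 and 328 TPM. Sdhb was highest of the 4 in every library and had 2.90 to 4.84 times the TPM of Sdhc, which was lowest in every library. The median over the 4 genes was 160.4 to 332 TPM in a library, beside 68.5 to 136 TPM over the 3 succinyl-CoA synthetase genes. The latter median was in every library the value of the higher beta subunit gene. As the beta subunits are alternatives in the enzyme, these medians are unlike measures and do not compare the steps. Suclg1 averaged 260, Sdhc 80.9 and Sdhd 196 TPM.

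The most abundant gene of the succinate-making enzyme was set against both catalytic subunits of the enzyme that uses succinate. Suclg1 exceeded Sdha in 6 of 6 libraries, by 0.19 ± 0.22 on the log2(TPM + 1) scale (SD, n = 6), and lay below Sdhb in 6 of 6 libraries, by a difference of -0.20 ± 0.15 (SD, n = 6). Both differences are small, and they hold for this subunit alone. The beta subunit genes Sucla2 and Suclg2 averaged 80.1 and 92.2 TPM, below Sdha at 232 and Sdhb at 298 TPM. The smallest differences of Suclg1 were 0.005 from Sdha in replicate 3 and -0.003 from Sdhb in replicate 2. The median TPM ratio was 1.10 of Suclg1 to Sdha and 1.14 of Sdhb to Suclg1, and replicate 5 had the largest excess over Sdha, at 0.58, without which the mean was 0.11. This excess averaged 0.02 over replicates 1 to 3 and 0.36 over replicates 4 to 6. An exact Mann-Whitney test, which ignores the pairing within a library, passed for neither (adjusted p = 0.216 for Sdha and 0.270 for Sdhb). The receptor gene Sucnr1 was at 261 to 577 TPM and had 0.849 to 2.23 times the TPM of Suclg1 in the same library.

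Fumarase, Fh1, was at 46.9, 68.0 and 118 TPM. Malate dehydrogenase closes the cycle with mitochondrial Mdh2, at 201, 254 and 354 TPM, and has a cytosolic form, Mdh1, at 178, 204 and 283 TPM. Mdh2 was higher in 5 of 6 libraries, and the difference of 0.25 ± 0.24 on the log2(TPM + 1) scale (SD, n = 6), from -0.12 to 0.53, did not pass the exact permutation test (p = 0.09375, adjusted p = 0.105).

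The carboxylase and carboxykinase genes of the set were low. Pcx, the pyruvate carboxylase, was at 0.56, 6.39 and 7.94 TPM. Pck1, the cytosolic phosphoenolpyruvate carboxykinase of gluconeogenic tissues, was at 5.88, 9.75 and 21.5 TPM and mitochondrial Pck2 at 5.56, 10.7 and 13.8 TPM. Pck2 and Pck1 differed by 0.02 ± 0.94 on the log2(TPM + 1) scale (SD, n = 6), from -1.78 to 0.76, and the exact permutation test gave p = 0.969 and adjusted p = 0.969. Without replicate 1 the mean was 0.38. Pck1 was highest in replicate 1, where the enterocyte gene Fabp1 was highest too, at 12794 TPM, while 6 of the 8 enterocyte markers were highest in replicate 4 and none of the 8 was at 0 in any library. The part of enterocyte RNA in Pck1 was not tested.

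**Figure D3:**
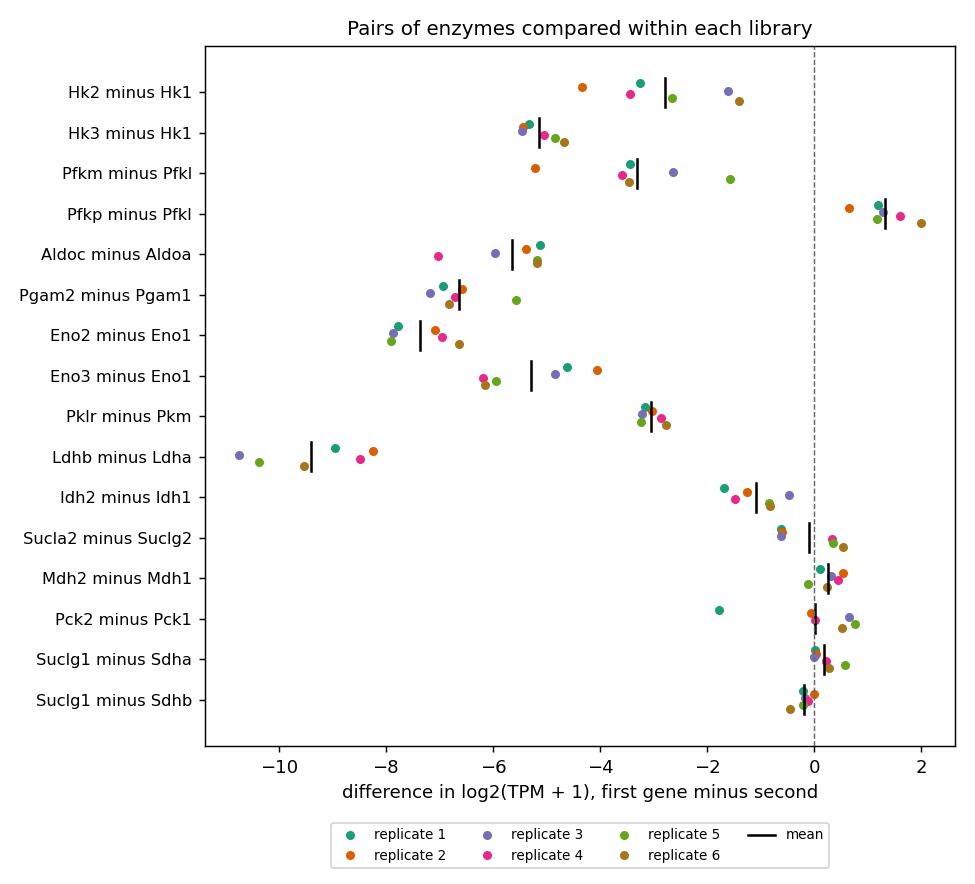
Difference in log2(TPM + 1) between the genes of each of 16 pairs of the 48 enzymes on the x axis, the first gene minus the second. Points are the 6 libraries, black bars the mean and the dashed line no difference. The Ldhb and Ldha pair lies farthest from 0, and the pairs of Sucla2 with Suclg2, of Mdh2 with Mdh1 and of Pck2 with Pck1 lie on both sides of it.

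The opposite reaction of the phosphofructokinase step was more abundant in transcripts than that step itself. Fbp2, the fructose bisphosphatase known from muscle (ENSMUSG00000021456.8, chromosome 13, 62836877 to 62858422, minus strand), was at 766, 676, 564, 459, 496 and 400.2 TPM in replicates 1 to 6. Fbp1, the liver form, was at 6.98 to 39.9 TPM. Fbp2 had 17.3 to 57.3 times the TPM of Fbp1 and 5.82 to 7.63 times that of the 3 phosphofructokinases together. Of the other 3 genes on a list of gluconeogenesis genes, G6pc3 and Slc37a4 averaged 16.3 and 27.3 TPM and G6pc, the glucose phosphatase of liver and kidney, was at 0 to 1.46 TPM. Of these 5 genes, 4 averaged at least 10 TPM, beside 29.8% of all genes, and 1, Fbp2, at least 100 TPM, beside 4.50%.

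**Figure D4:**
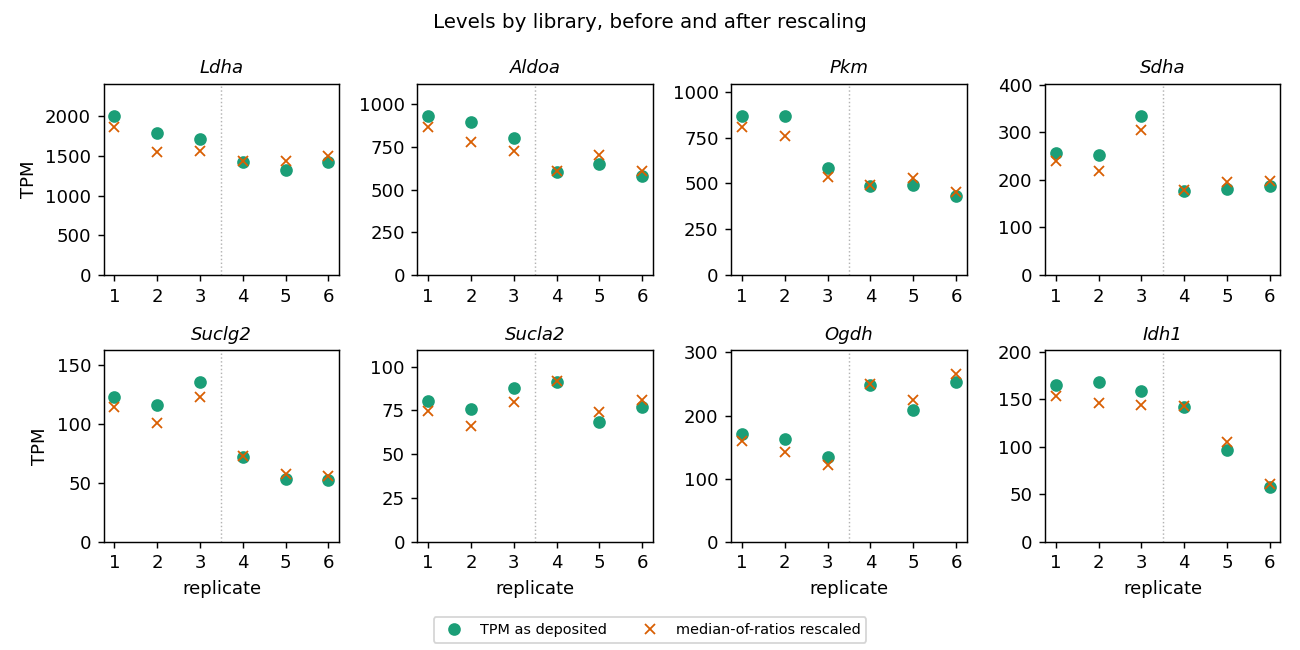
TPM of 8 enzyme genes (y axis, each from 0) by replicate (x axis), as deposited (circles) and after median-of-ratios rescaling (crosses), with a dotted line between replicates 3 and 4. Suclg2 and Sdha lie higher in replicates 1 to 3 and Ogdh higher in replicates 4 to 6, while Sucla2 shows no such step.

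The libraries fell apart for part of the enzymes. Replicates 1 to 3 and 4 to 6 differ in Gm20594, at 15588 to 21283 TPM against 51804 to 56441 TPM, and in Rn45s, at 23.1% to 25.1% against 26.7% to 32.6% of the TPM, and the labels name no batch. In TPM as deposited, 12 of the 40 enzymes of at least 10 TPM had all 3 values of replicates 1 to 3 above those of replicates 4 to 6, and 16.8% of all genes of that level did. They were Hk1, Gpi1, Pfkl, Aldoa, Tpi1, Gapdh, Pkm and Ldha of glycolysis, Pdha1, Idh1, Suclg2 and Sdha. After rescaling without Rn45s and Gm20594 the number was 9 of 40, beside 7.00% of all genes, and Tpi1, Pkm and Ldha were no longer among them. Median-of-ratios rescaling, which divides each library by its median ratio to the geometric mean of the libraries, gave 10 of 40 beside 7.25%, without Gpi1 and Tpi1. Thus Hk1, Pfkl, Aldoa, Gapdh, Pdha1, Idh1, Suclg2 and Sdha were separated under all 3 scalings, and so was Ogdh in the other direction, beside 6.42% of all genes after median-of-ratios rescaling and 6.35% without Rn45s and Gm20594.

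Sizes of these differences ranged widely. The mean TPM in replicates 1 to 3 and 4 to 6 was 876 and 612 for Aldoa, 1838 and 1392 for Ldha, 281 and 182 for Sdha, 125 and 59.5 for Suclg2, 164 and 99.0 for Idh1 and 156 and 236 for Ogdh. Some marker genes of other cells were separated between the same sets, and of the marker sums only those of Paneth and stem cells did not overlap. The Paneth cell list summed to 3563 to 6329 TPM in replicates 1 to 3 and 7277 to 21421 TPM in replicates 4 to 6, with 3 of 7 genes higher in replicates 4 to 6 without overlap, a direction shown by 2.93% of all genes of at least 10 TPM. The goblet cell list summed to 1053 to 2495 and 2324 to 5118 TPM, also with 3 of 7 genes higher in replicates 4 to 6. The enterocyte list summed to 5855 to 14822 and 6501 to 9487 TPM, with 2 of 8 genes higher in replicates 4 to 6, and the leukocyte list to 123 to 219 and 169 to 302 TPM, with 1 of 7. In the other direction, shown by 16.8% of all genes of that level, the stem cell list summed to 715 to 788 and 317 to 595 TPM, with 1 of 5 genes higher in replicates 1 to 3, the list of dividing cells to 56.8 to 173 and 39.0 to 91.7 TPM, with 1 of 4, and the tuft cell list to 6059 to 10221 and 6208 to 7189.7 TPM, with 2 of 13. In the enteroendocrine and red blood cell lists 0 genes were separated. These list counts take every listed gene, also those averaging under 10 TPM, unlike the shares of all genes beside them. Of the 7 leukocyte genes, 3 averaged at least 10 TPM, beside 29.8% of all genes. None of the defining genes Lyz1, Muc2, Lgr5 and Dclk1 was at 0 in any library. Their part in the enzyme levels was not tested.

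Replicate 3, singled out after the values were seen, held the highest value of most TCA cycle genes. In TPM as deposited, 15 of the 19 TCA cycle genes were highest there, the exceptions being Idh1, Ogdh, Dlst and Sucla2, while 28.2% of all genes of at least 10 TPM were highest in that library. After median-of-ratios rescaling the numbers were 14 of 19 and 22.8%, and without Rn45s and Gm20594 they were 14 of 19 and 19.2%. All 4 succinate dehydrogenase genes were among the 15, with Sdhd at 328 TPM in replicate 3 and at most 229 TPM elsewhere. Of the 15 glycolysis genes of at least 10 TPM, 6 were highest in replicate 3, 5 in replicate 1 and 4 in replicate 2. After median-of-ratios rescaling, 6 were highest in replicate 3, beside 22.8% of all genes. Without Rn45s and Gm20594, 3 were highest there, beside 19.2% of all genes. The dividing-cell markers Top2a, Ccnb1 and Cdk1 were highest in replicate 3 too, at 62.6, 75.5 and 18.6 TPM, the fourth of that list, Mki67, was highest in replicate 5, and the tuft cell list had its lowest sum there. Their part in the TCA cycle levels was not tested, and neither the labels nor the methods set this library apart.

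**Figure D5:**
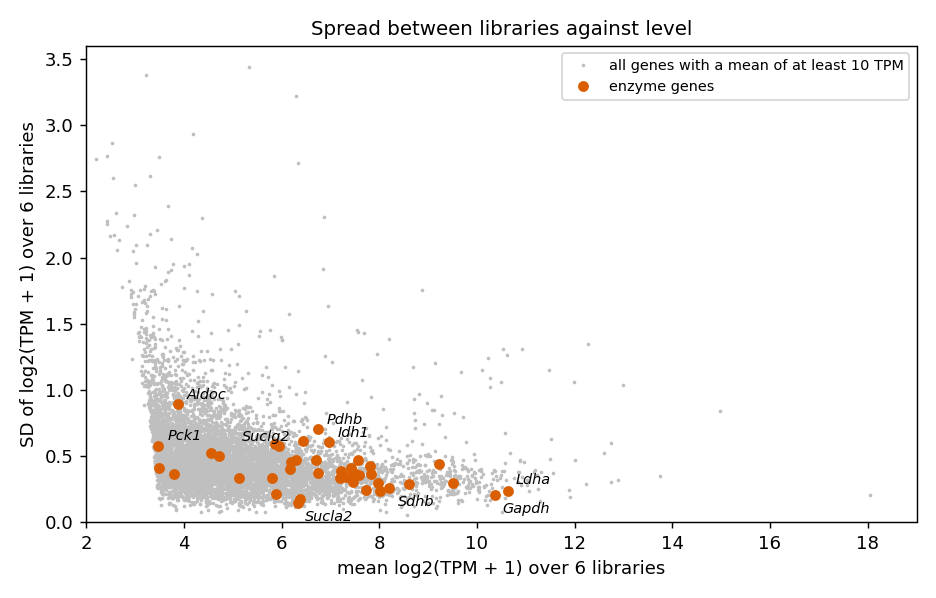
SD of log2(TPM + 1) over 6 libraries (y axis) against its mean (x axis) for the 6986 genes that averaged 10 TPM or more (grey) and the 40 enzyme genes among them (orange). Sucla2 has the lowest SD of the enzymes, at 0.15, and Aldoc the highest, at 0.89.

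Between libraries the enzymes were about as steady as other genes of their level. The median SD on the log2(TPM + 1) scale was 0.37 over the 40 enzymes of at least 10 TPM and 0.44 over all 6986 such genes, and 0.36 over the 23 enzymes of at least 100 TPM against 0.34 over all 1054. Ordered by mean, 7 of 47 neighbouring enzymes kept their order in 6 of 6 libraries. These were the steps from Ldha through Gapdh, Aldoa, Pkm, Tpi1 and Sdhb to Suclg1, and from Eno2 to Hk3, whereas the other 40 neighbours, such as Suclg1 and Mdh2 or Idh3b and Cs, changed places from library to library.

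Shared sequence limits some of these levels. Over GENCODE M21 transcripts on GRCm38, the assembly of the mm10 transcriptome that the authors used, 43 of the 48 enzymes had under 5% of their 25-base words in another gene of the table. The other 5 were Eno1 with 28.7%, Gapdh with 26.1%, Aldoa with 10.7%, Ldha with 8.20% and Cs with 7.77%. For Gapdh the gene sharing most words, Gm12070, had a mean of 0.355 TPM. Exons of 10 enzymes overlap those of another gene in the table, in each case on the opposite strand, and 3 of them by more than 5% of their exonic bases, namely Pfkp, Pklr and Pdha1. The overlapping gene of Pfkp, Pitrm1, had a mean of 11.1 TPM, and without a stated strand setting reads of the shared 748 bases cannot be told apart.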

How the data were processed

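The authors sorted tuft cells into lysis buffer, prepared full-length cDNA libraries by a modified SMART-Seq2 protocol, mapped the paired-end reads with Bowtie to the UCSC mm10 transcriptome discarding reads with more than 15 alignments, and deposited RSEM gene levels in TPM for 6 libraries. The labels add 3' polyA and 10X preparations to every library and also list TopHat, which the stated route to TPM does not use. RSEM divides reads shared by similar genes. No source used here states a filter or strand setting. The titles number the libraries as mouse replicates, and the paper counts 6 independent samples. Nothing states how many animals each library holds, so the p-values take the library as the unit.

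The deposited values were used on the log2(TPM + 1) scale. Depth is unknown. Genes were compared within libraries by an exact two-sided sign-flip permutation test over 64 assignments, with Benjamini-Hochberg adjustment over 18 pairs. Members, lists and pairs were chosen with earlier results of these data known. All 48 enzymes were named, other pathway genes from a mean of 10 TPM or where compared, and the most abundant gene of each marker list, except for some results that are not reported here, 2 of the 18 pairs among them. Further marker genes, G6pc, the overlapping genes and the comparisons between replicates were chosen after values were seen. Of the listed genes, 7 were found under an older symbol and Hbb-bt was not found. Scripts were tested on simulated data. Tests ran under scipy 1.17.1 (Python 3.11.15, with pandas 2.3.3 and numpy 2.4.6), and plots under matplotlib 3.10.9.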

Additional observations from a re-analysis of the deposited data

Results flagged for a closer look

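Of 66 measures, the 48 enzyme levels and 18 pair differences, 6 had 1 library farther from the nearest other than Dixon's 95% critical ratio of gap to range for 6 libraries. About 3.3 would do so by chance, at 1 in 20, and the measures of a pair are not independent of its genes.

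Pcx was at 0.56 TPM in replicate 5 and at 5.93 to 7.94 TPM elsewhere (ratio 0.728, and 0.854 on the log2 scale). The ratio was 0.638 after median-of-ratios rescaling and 0.618, below the critical value, without Rn45s and Gm20594. Pgam2 was at 1.75 TPM in replicate 5 and at most 0.54 TPM elsewhere (ratio 0.691, and 0.573, below the critical value, on the log2 scale). Its difference from Pgam1 was -5.57 there and at most -6.57 elsewhere (ratio 0.629, and 0.551, below the critical value, after median-of-ratios rescaling). Dlst was at 64.5 TPM in replicate 4 and at least 81.6 TPM elsewhere (ratio 0.681), which was 0.398 after median-of-ratios rescaling. Pck1 was at 21.5 TPM in replicate 1 and at most 11.3 TPM elsewhere (ratio 0.656, and 0.513, below the critical value, on the log2 scale), and without that library its mean was 8.86 in place of 10.97 TPM. The difference of Pck2 from Pck1 was -1.78 there and at least -0.05 elsewhere (ratio 0.680), and its mean was 0.38 without that library.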

How the results depend on the processing

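Pseudocounts of 0.1 and 0.01, setting values under 0.1 TPM to 0, median-of-ratios rescaling and rescaling without Rn45s and Gm20594 left each of the 18 pair differences on its side of the threshold and in its direction. Rescaling multiplies a whole library, so that this follows largely from its construction. With a pseudocount of 0.01 the difference of Pfkm from Pfkl was -5.17 in place of -3.31, and that of Hk3, listed at 0, is set by the pseudocount. The exact Mann-Whitney test without pairing took 2 pairs out of those that passed, Suclg1 and Sdha (difference 0.19) and Suclg1 and Sdhb (difference -0.20), because it drops the matching of genes by library. The other 16 kept their side of the threshold. With each library left out in turn, and within replicates 1 to 3 or 4 to 6, no difference moved by more than its SD. Such subsets of 6 values cannot move a mean that far, so this follows from its construction. Sucla2 and Suclg2, and Pck2 and Pck1, which did not pass, changed sign in some of these subsets. As 5 libraries allow no p under 0.0625, these are values with no test. Of the 48 mean levels, 37 moved by more than their SD without Rn45s and Gm20594, which raises every value, and 0 under median-of-ratios rescaling. No paired analysis was possible because the libraries form 1 group, so that no groups could be matched by replicate number. The pairing in the main test is of genes within a library. The split of replicates 1 to 3 from 4 to 6 and the count for replicate 3 were added after the data were seen. Depth is not kept in TPM, so zeros such as those of Hk3 and Ldhb have no limit.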

Other observations

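Control points around the pathway were represented unevenly. Of 15 regulators of glycolysis and pyruvate use, and beside 29.8% of all genes, 8 averaged at least 10 TPM. Fbp2 led them, followed by Pfkfb3, which makes the fructose 2,6-bisphosphate that activates phosphofructokinase, at 51.6, 96.9 and 128 TPM in the lowest, median and highest library. Pfkfb2 averaged 14.4 TPM, and Hif1a, a hypoxia-inducible factor gene, 26.2 TPM. Of the kinases that switch off pyruvate dehydrogenase, Pdk2 averaged 45.6, Pdk3 23.7 and Pdk1 13.5 TPM.

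Of 5 carriers of pyruvate and lactate, Mpc1, a subunit of the mitochondrial pyruvate carrier, averaged 167 TPM and its partner Mpc2 78.2 TPM. The lactate carriers Slc16a1 and Slc16a3 averaged 13.5 and 11.7 TPM, against 1615 TPM of Ldha, and Slc16a3 was at 28.1 and 18.2 TPM in replicates 1 and 2 and at most 9.57 TPM elsewhere. Of 15 other isozymes and neighbouring enzymes, and beside 29.8% of all genes, 6 averaged at least 10 TPM. They included Me2, a mitochondrial malic enzyme that makes pyruvate from malate, at 135 TPM, Pdhx, a structural part of the pyruvate dehydrogenase complex, at 13.8 TPM, and Adpgk, an ADP-dependent glucokinase, at 10.4 TPM.

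Among 5 enzymes that make succinate outside the step of succinyl-CoA synthetase or feed it, Oxct1, of ketone body use, averaged 37.2 TPM and Abat, of GABA breakdown, 20.4 TPM. Of the succinate carriers, mitochondrial Slc25a10 averaged 38.2 TPM, and Slc13a2, a dicarboxylate carrier of the apical membrane, was at 2.90 to 68.0 TPM with its highest value in replicate 4. Of the 4 assembly factors of succinate dehydrogenase, Sdhaf4 averaged 39.4, Sdhaf1 27.1 and Sdhaf2 18.6 TPM.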
